A study of Mus musculus with 6 samples.

Results

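The transcripts of 10 regulators of mitochondrial biogenesis were described in immortalized WT and AS podocytes. The genes were chosen by name and not by their values, although earlier results of these data were known. They were the coactivators Ppargc1a, Ppargc1b and Pprc1 and the nuclear transcription factors Nrf1 and Esrra. The others were the mitochondrial transcription genes Tfam, Tfb1m, Tfb2m and Polrmt, and the mitochondrial DNA polymerase gene Polg. All 10 were found among the 57132 genes of the count table, and all 10 passed the filter on low counts, which 16263 genes passed in total. RNA came from 3 samples of each line, and since no source says that these were separate cultures, p-values measure the spread between the samples, which may be technical. Both lines were labelled as kidney podocytes of adult male mice of 8 weeks, WT with the genotype Col4a3+/+ and AS with Col4a3-/-, and neither was treated. Both carry the H-2Kb-tsA58 transgene, a heat-sensitive T antigen under an interferon-inducible promoter, were kept with 20 U/mL interferon gamma at 33 °C and were differentiated for 14 days at 37 °C per the labels. The study's methods give a lower interferon dose and fewer days of differentiation for these lines. Only 1 line was used per genotype, and an effect of the line cannot be told apart from one of Col4a3.

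Mitochondrial biogenesis needs proteins from both genomes. The PGC-1 family of coactivators, encoded by Ppargc1a, Ppargc1b and Pprc1, does not bind DNA itself but is recruited to genes by factors such as nuclear respiratory factor 1 (Nrf1, which is distinct from Nfe2l1 of the same alias) and the estrogen-related receptor alpha (Esrra). These factors in turn act on nuclear genes for the mitochondrial RNA polymerase (Polrmt), its DNA-packaging and promoter factor (Tfam), its initiation factor (Tfb2m) and the DNA polymerase gamma (Polg), whereas Tfb1m methylates the small mitochondrial ribosomal RNA. In the kidney PGC-1 alpha is known best from the tubule, which is rich in mitochondria.

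The promoters of the 3 members that were higher in AS podocytes are shown, since the nuclear factors among the members are known to act on genes of this kind. The sequences are from RefSeq (GRCm38.p6) and hold the 250 bases before the annotated start, 5′ to 3′ on the strand of the gene. Capitals mark an NRF-1 motif (GCATGCGC, or GCGCATGC on the other strand) or an ETS core, the core bound by the factor GABP (CCGGAAG, or CTTCCGG on the other strand), and the motifs did not overlap.
Esrra (chr19:6921809-6922058, minus strand): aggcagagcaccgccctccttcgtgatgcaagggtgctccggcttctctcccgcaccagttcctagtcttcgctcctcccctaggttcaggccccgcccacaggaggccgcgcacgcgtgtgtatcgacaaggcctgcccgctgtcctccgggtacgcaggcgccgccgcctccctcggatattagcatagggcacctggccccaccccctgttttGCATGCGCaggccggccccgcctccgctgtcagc
Tfam (chr10:71238045-71238294, minus strand): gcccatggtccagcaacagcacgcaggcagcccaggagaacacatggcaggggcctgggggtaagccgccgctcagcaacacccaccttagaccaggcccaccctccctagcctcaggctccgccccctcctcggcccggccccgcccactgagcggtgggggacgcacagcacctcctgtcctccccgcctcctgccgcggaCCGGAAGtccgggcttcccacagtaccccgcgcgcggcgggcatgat
Polrmt (chr10:79746582-79746831, minus strand): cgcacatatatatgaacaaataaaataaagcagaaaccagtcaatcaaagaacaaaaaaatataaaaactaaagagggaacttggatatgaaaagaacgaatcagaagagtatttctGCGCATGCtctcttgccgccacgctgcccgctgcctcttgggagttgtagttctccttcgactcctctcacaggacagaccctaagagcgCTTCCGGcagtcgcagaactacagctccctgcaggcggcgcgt

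In windows of 300 bases, which add 50 bases from the start on, 9 of the 10 members were searched, with 10 windows because Nrf1 has a pair of starts. Promoters on chromosome 18, where Ppargc1b lies, were left out for the members but not for the shares of all windows, so Ppargc1b was not searched. The NRF-1 motif was found in Esrra (first base at -34 from the start), Polrmt (-133) and Tfb2m (14 bases into the transcript), and in 2.71% of all 32851 windows of the table. The ETS core was found in Tfam (-47), Polrmt (-43) and Polg (-38), and in 8.86% of all windows. The motif of estrogen-related receptors (AAGGTCA, or TGACCTT on the other strand) was in none of the 10 windows and in 4.72% of all. A match of these letters is a description of the sequence, and binding was not measured.

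The libraries held 45417221 to 54290968 counts. Col4a3, the gene targeted in AS mice, was at 938 to 1272 CPM in WT and at 61.2 to 82.9 CPM in AS podocytes, where CPM are counts relative to the library size after TMM scaling. Among podocyte markers, the WT and AS means were 0.466 and 0.0407 CPM for Nphs1, 803 and 526 CPM for Synpo and 20.6 and 2.50 CPM for Wt1. Of 14 podocyte genes 11 were tested, 7 were lower and 2 higher in AS, and their summed level was 2222 to 2545 CPM in WT podocytes and 1850 to 2021 CPM in AS podocytes. Of 5 mesangial genes tested 1 was lower (Pdgfrb, 252.5 and 115.9 CPM) and 1 higher (Rgs5, 3.27 and 9.99 CPM), with sums of 251.5 to 278.8 CPM in WT and 132.6 to 136.8 CPM in AS carried by Pdgfrb. Of 5 tubule genes tested 1 was higher (Cdh16, 71.3 and 199.7 CPM) and 1 lower (Aqp1, 114.8 and 69.7 CPM), with sums of 435 to 499 and 462 to 612 CPM. Parietal epithelial markers (2 of 5 tested lower) summed to 1122 to 1466 and 916 to 1033 CPM, endothelial markers (both genes tested lower) to 3.24 to 4.87 and 1.29 to 2.37 CPM, and leukocyte markers (1 of 3 tested lower, Csf1r) to 11.2 to 15.0 and 5.09 to 7.02 CPM. Among all genes tested, 40.1% were called in the same fit, 20.4% higher and 19.6% lower in AS podocytes. The share called was 81.8% of the podocyte genes tested and 33.3% of the leukocyte genes. For the parietal epithelial, tubule and mesangial genes it was 40% each, which is that of the background. Umod, Aqp2, Adgre1 and Cd3e had 0 counts in all 6 samples, which limits each to 0.0209 CPM for WT and 0.0198 CPM for AS (3 counts per group of samples, counting error only). The part of these differences in the results was not tested, and in bulk RNA fewer cells of a type and less RNA per cell cannot be told apart.

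AS podocytes had higher levels of Esrra, Tfam and Polrmt and a lower level of Ppargc1b than WT podocytes, while the other 6 members did not pass the test. The increases were 1.40-fold, 1.37-fold and 1.29-fold. Thus 4 of 10 members were called at an adjusted p under 0.05 by edgeR's quasi-likelihood test, where 40.1% of all genes tested were called, so the share among the members was that of the background. In 1 direction, 3 members were higher against 20.4% of all genes, and 1 was lower against 19.6%. The CPM of the lines did not overlap in 5 members, against 52.3% of all genes. The median log2 fold change was 0.17 over the members and 0.0061 over all genes tested. The plot of CPM by sample shows the members side by side.

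**Figure D1:**
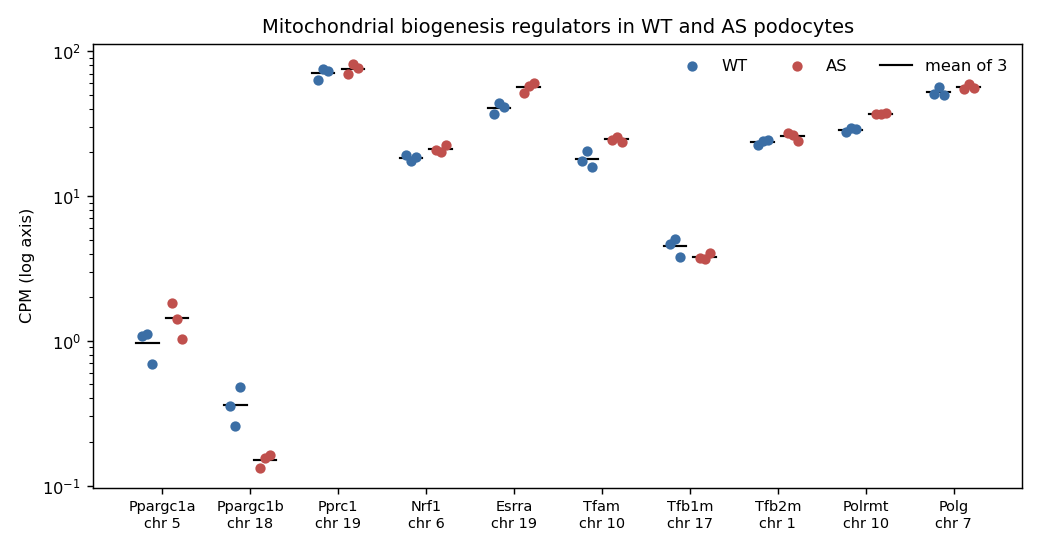
CPM on a log axis for each member, with the chromosome under its name; points are samples (WT blue, AS red) and bars the mean of 3. Esrra, Tfam, Polrmt and Nrf1 lie higher in every AS sample, Ppargc1b lies lower, and the other 5 members overlap.

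Of the coactivators, the classical members were near the lower end of expression. Ppargc1a (ENSMUSG00000029167.14, chromosome 5), the coactivator best known for driving mitochondrial biogenesis, was at 1.08, 1.11 and 0.694 CPM in the WT samples and at 1.82, 1.42 and 1.04 CPM in the AS samples. AS sample 3 lay below WT samples 1 and 2, so the lines overlapped. The log2 fold change of 0.56 (SE 0.30, 95% interval -0.12 to 1.23) did not pass (adjusted p = 0.174, edgeR), and the interval covers both no difference and a large rise. These values rest on 32 to 82 counts per sample.

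Ppargc1b (ENSMUSG00000033871.15, chromosome 18), its close relative, was at 0.355, 0.256 and 0.477 CPM in WT and at 0.133, 0.156 and 0.164 CPM in AS podocytes. No AS sample reached the lowest WT sample, on only 12 to 22 counts per WT sample and 6 to 9 counts per AS sample. AS podocytes held 0.422 times the WT level, a log2 fold change of -1.25 (SE 0.44), and the adjusted p of 0.0489 (edgeR) was just under the threshold. The counting intervals of the group sums (exact Poisson, 95%) were 0.270 to 0.475 CPM in WT podocytes and 0.0963 to 0.228 CPM in AS podocytes. The direction held in all 15 other fits, but the call was lost in 12 of them, with adjusted p from 0.0480 to 0.185 over the 15. Among these, leaving out any 1 sample gave 0.0608 to 0.185, limma-voom 0.0638, DESeq2 0.101 and the replicate block 0.0779.

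Pprc1 (ENSMUSG00000055491.15, chromosome 19), a PGC-1 related coactivator that responds to growth signals, was the most abundant coactivator by far. It stood at 63.6, 74.8 and 72.5 CPM for WT, at 69.3, 81.3 and 76.6 CPM for AS, and the lines overlapped. The log2 fold change was 0.11 (SE 0.08, 95% interval -0.07 to 0.29, adjusted p = 0.319, edgeR). This interval leaves no room for a change as large as that fitted for Esrra.

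For both nuclear factors all AS values stood above the WT values, and 1 of them passed the test. Esrra (ENSMUSG00000024955.16, chromosome 19), an orphan nuclear receptor that partners with the PGC-1 coactivators on genes of oxidative metabolism, was at 36.6, 43.8 and 41.1 CPM in WT and at 51.3, 57.9 and 60.3 CPM in AS podocytes. The lowest AS sample stood above the highest WT sample. The log2 fold change was 0.48 (SE 0.09, adjusted p = 0.00182, edgeR), and it passed in all 16 other fits (0.29 to 0.54).

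Nrf1 (ENSMUSG00000058440.15, chromosome 6), a sequence-specific activator of respiratory chain and mitochondrial transcription genes, was at 19.3, 17.5 and 18.4 CPM in WT and at 20.8, 20.2 and 22.6 CPM in AS podocytes. The samples of the lines did not overlap, with a small gap. The log2 fold change of 0.20 (SE 0.08) did not pass over all genes tested (adjusted p = 0.0674, edgeR), and passed without WT sample 1 (0.24, adjusted p = 0.0473, edgeR).

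The mitochondrial transcription genes split. Tfam (ENSMUSG00000003923.15, chromosome 10), which packages mitochondrial DNA and bends it at the promoters, was at 17.5, 20.4 and 15.8 CPM in WT and at 24.4, 25.7 and 23.5 CPM in AS podocytes. All AS samples were above all WT samples, with a log2 fold change of 0.46 (SE 0.10, adjusted p = 0.00518, edgeR). Polrmt (ENSMUSG00000020329.13, chromosome 10), the RNA polymerase of mitochondria, had the tightest values of the set. Its CPM was 27.6, 29.3 and 28.9 for WT and 36.9, 36.7 and 37.2 for AS, with a coefficient of variation of 3.08% and 0.734%. The difference was far wider than this spread, with a log2 fold change of 0.37 (SE 0.06, adjusted p = 0.00111, edgeR).

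Tfb2m (ENSMUSG00000026492.12, chromosome 1), the factor with which the polymerase melts the promoter, was at 22.3, 24.0 and 24.3 CPM in WT and at 27.0, 26.5 and 23.9 CPM in AS podocytes. AS sample 3 fell among the WT samples, and the log2 fold change of 0.13 (SE 0.07, 95% interval -0.04 to 0.30, adjusted p = 0.195, edgeR) did not pass. Tfb1m (ENSMUSG00000036983.8, chromosome 17), the ribosomal RNA methyltransferase of the pair, was at 4.65, 5.04 and 3.81 CPM in WT and at 3.73, 3.66 and 4.03 CPM in AS podocytes. It was the other member besides Ppargc1b with a fitted value below 0, at -0.24 (SE 0.15, 95% interval -0.59 to 0.11, adjusted p = 0.248, edgeR), and its samples overlapped.

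Polg (ENSMUSG00000039176.18, chromosome 7), the catalytic subunit of the enzyme that replicates mitochondrial DNA, was at 50.8, 56.3 and 49.7 CPM in WT and at 54.9, 59.4 and 55.9 CPM in AS podocytes. WT sample 2 lay within the AS range. The log2 fold change was 0.12 (SE 0.07, 95% interval -0.03 to 0.27, adjusted p = 0.191, edgeR).

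Some members share sequence with other annotated genes (GENCODE M21), and no source says whether reads were counted by strand. Exons of Polg share 921 bases with Fanci on the opposite strand, those of Pprc1 177 bases with Ldb1, those of Tfb1m 142 bases with Tiam2 and those of Esrra 73 bases with Trmt112. Tiam2 had 458 to 543 counts in WT and 1136 to 1416 counts in AS podocytes, more than Tfb1m in every sample. Ldb1 had 6921 to 7708 counts in WT and 8311 to 11018 counts in AS podocytes, more than Pprc1 in every sample. The Tfb1m and Pprc1 values are therefore uncertain where strand was not used. Of the 75-base windows in Tfb2m transcripts, 29.6% also occur in the unprocessed pseudogene Gm1818, which had 0 to 8 counts per sample, and Tfb2m is therefore uncertain where reads were split. Tfam, Polrmt, Nrf1, Ppargc1a and Ppargc1b shared 0 such windows with transcripts of other genes and no exon overlapped theirs.

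Levels were also compared between members per length, as CPM per kilobase of merged exons, as plotted in the order of the WT means. In WT podocytes the order was Pprc1 (11.2 ± 0.944, SD, n = 3), Esrra (9.23 ± 0.835), Tfb2m (8.40 ± 0.372), Polrmt (6.10 ± 0.188), Polg (4.86 ± 0.329), Tfam (4.03 ± 0.533), Nrf1 (1.79 ± 0.0882), Tfb1m (1.25 ± 0.174), Ppargc1a (0.146 ± 0.0355) and Ppargc1b (0.0909 ± 0.0277), all in CPM per kilobase. The samples of Esrra and Tfb2m overlapped, as did those of Ppargc1a and Ppargc1b, whereas all other neighbours were separate. In AS podocytes Esrra (12.9 ± 1.07) stood above Pprc1 (12.1 ± 0.962) and Tfam (5.53 ± 0.239) above Polg (5.28 ± 0.222), and the samples of both these pairs overlapped. The highest member stood 123 times above the lowest in WT and 340.7 times in AS podocytes. Among all genes tested, Ppargc1a ranked at the percentile 8.16 of WT levels per kilobase and Pprc1 at 74.4.

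**Figure D2:**
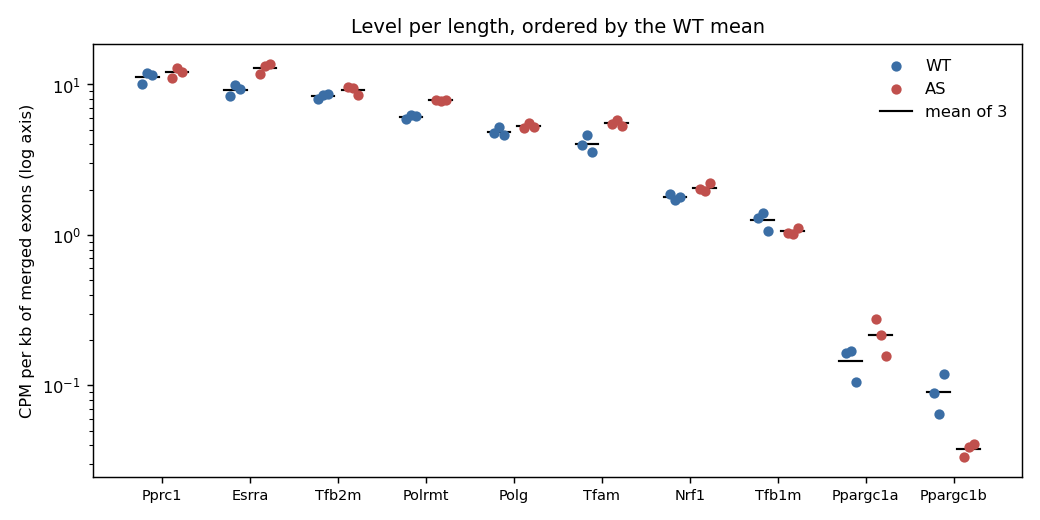
CPM per kilobase of merged exons on a log axis, ordered by the WT mean; points are samples (WT blue, AS red) and bars the mean of 3. Pprc1, Esrra and Tfb2m stand at the top, and Ppargc1a and Ppargc1b lie far below the others in every sample.

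The members lie on 8 chromosomes, and genes of some of these were shifted as a whole between the lines. Among genes whose mean log2 CPM exceeded 2, the median log2 fold change was 0.32 on chromosome 10, 0.20 on chromosome 5, 0.19 on chromosome 19, -0.20 on chromosome 6, -0.10 on chromosome 18, and -0.012, -0.011 and 0.023 on chromosomes 1, 7 and 17. The plot of differences sets each member beside the median of the other genes on its chromosome. DNA was not measured.

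**Figure D3:**
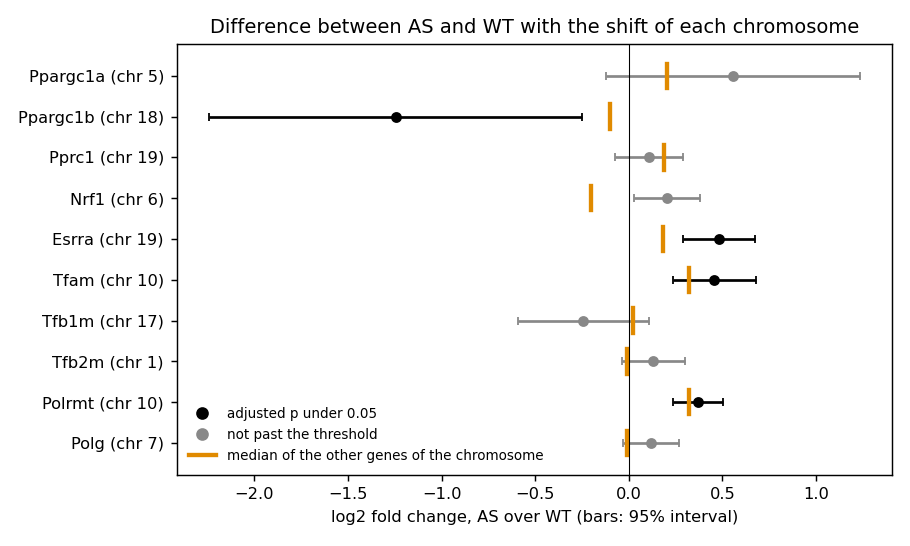
Log2 fold change of AS over WT with its 95% interval for each member (black where the adjusted p is under 0.05, grey otherwise), and in orange the median of the other genes on the same chromosome. The intervals of Tfam and Polrmt include the chromosome 10 median, whereas those of Esrra, Nrf1 and Ppargc1b exclude the median of their chromosome.

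Tfam and Polrmt, both on chromosome 10, differed by about as much as their neighbours. Their log2 fold changes of 0.46 and 0.37 stand beside a median of 0.32 over the 522 other genes, of which 67.8% lay below Tfam and 56.1% below Polrmt. With the chromosome median removed in the fit, the difference was 0.13 for Tfam (adjusted p = 0.344, edgeR) and 0.044 for Polrmt (adjusted p = 0.614, edgeR), and neither passed. Esrra kept its call in that fit, at 0.29 (adjusted p = 0.0257, edgeR), and 84.3% of the 383 other genes of chromosome 19 lay below it. Nrf1 gained a call there, at 0.40 (SE 0.08, adjusted p = 0.00389, edgeR), its fitted value being above 0 on a chromosome with a median below 0, and 87.3% of the 521 other genes of chromosome 6 lay below it. Pprc1 turned to -0.08 without a call.

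The other genes of the pathway were taken from 10 lists and read from the same fit. Of 202 list genes tested, AS podocytes had higher levels of 35 and lower levels of 23, so that 28.7% were called against 40.1% of all genes. With the chromosome medians removed, 35 in all were called in place of 58. None of the 10 lists had a larger share called than the background. The bar chart of calls shows the lists in turn.

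**Figure D4:**
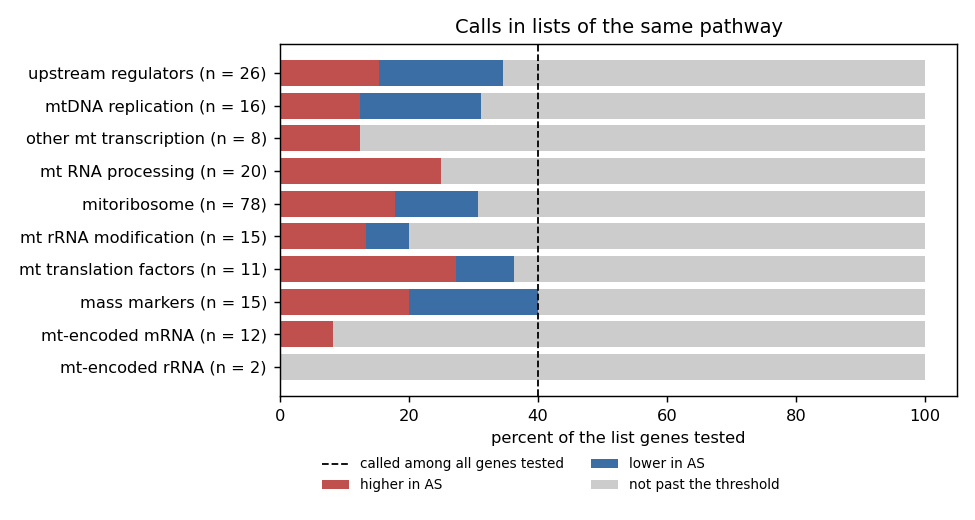
Percent of the tested genes of each list that were higher in AS podocytes (red), lower (blue) or not past the threshold (grey), with the number tested beside the name and the 40.1% of all genes called as a dashed line. The mass markers reach the line, split equally between 3 higher and 3 lower genes.

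Upstream of the coactivators, subunits of AMP-activated protein kinase moved in both directions. Of 26 upstream regulators tested, 4 were higher, 5 were lower and 17 did not pass, with a median log2 fold change of 0.020. Prkag2, a regulatory subunit of the kinase, was at 24.5, 26.4 and 25.2 CPM in WT and at 39.7, 42.9 and 38.6 CPM in AS podocytes, the smallest adjusted p of the list (log2 fold change 0.67, SE 0.07, adjusted p = 6.50e-05, edgeR). Stk11 on chromosome 10, which phosphorylates the kinase, rose 1.34-fold (adjusted p = 0.000255, edgeR), and lost its call with the chromosome median removed (log2 fold change 0.10, adjusted p = 0.187). Prkaa2, a catalytic subunit, fell to 0.729 times the WT level, from 98.5 ± 2.07 to 71.9 ± 4.44 CPM (SD, n = 3 each, adjusted p = 0.000298, edgeR). The others called, named after their values were seen, were Sirt1 and Myc, which were higher, and Prkab2, Crtc2, Nrip1 and Esrrg, which were lower. Sirt1, a deacetylase of PGC-1 alpha on chromosome 10, was at 13.2 ± 1.27 CPM in WT podocytes and 19.3 ± 0.656 CPM in AS podocytes (SD, n = 3 each). Esrrg, a relative of Esrra, went the opposite way, from 1.48, 1.09 and 0.802 CPM in WT to 0, 0.136 and 0.145 CPM in AS podocytes (log2 fold change -3.49, SE 0.62, adjusted p = 0.00181, edgeR).

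Genes that replicate mitochondrial DNA were mixed as well, with 2 higher and 3 lower of 16 tested. The pyrimidine nucleotide carrier Slc25a33 (log2 fold change -0.58, adjusted p = 0.00460, edgeR) and the flap endonuclease Fen1 (-0.52, adjusted p = 0.00757, edgeR), which also serves nuclear replication, were lower. Thymidine kinase 2 (Tk2) was higher, at 0.26 (adjusted p = 0.0112, edgeR), and turned to -0.061 with the median of chromosome 8 removed. Of 8 other mitochondrial transcription genes 1 was called, the protease Lonp1, which degrades unbound TFAM protein, at 0.20 (adjusted p = 0.0173, edgeR). The Lonp1 call was lost without WT sample 3, AS sample 2 or AS sample 3 (0.18 to 0.19, adjusted p = 0.0647 to 0.0676, edgeR). Mterf2 and Mterf1b had the next smallest adjusted p in that list and did not pass, and Mterf1b is uncertain because Mterf1a is a near copy.

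For RNA processing 5 of 20 genes tested were higher, which is 25% against 20.4% of all genes. Of the 20, 17 had a fitted value above 0, but the median log2 fold change was only 0.096, against 0.0061 over all genes tested. The named ones were the helicase Supv3l1 (log2 fold change 0.44, adjusted p = 0.00181, edgeR) and the exoribonuclease Pnpt1 (0.35, adjusted p = 0.00346, edgeR), which together form the mitochondrial RNA degradosome, and the tRNA-modifying Mto1 (0.52, adjusted p = 0.00597, edgeR). Among 78 mitoribosomal protein genes, 14 were higher, 10 were lower and 54 did not pass, with a median log2 fold change of 0.020. Mrps12 was at 11.7 ± 0.994 CPM in WT and at 21.4 ± 0.592 CPM in AS podocytes (SD, n = 3 each), and its AS level was 1.83 times that of WT (adjusted p = 5.83e-05, edgeR). Mrpl3 and Mrpl1 rose 1.47-fold and 1.44-fold. Of 15 genes listed for mitochondrial RNA modification and ribosome assembly 2 were higher, Mrm2 (0.68, adjusted p = 0.00345, edgeR) and Ddx28 (0.45, adjusted p = 0.00728, edgeR), and 1 was lower, Nsun3, which methylates a mitochondrial tRNA and not ribosomal RNA (-0.63, adjusted p = 0.000754, edgeR). Of 11 translation factors 3 were higher, the elongation factor Tsfm (0.52), the GTPase Guf1 (0.45) and the release factor Mtrf1l (0.41), and 1 was lower. The Mtrf1l call was lost without WT sample 2, AS sample 1 or AS sample 2 (0.34 to 0.43, adjusted p = 0.0539 to 0.0976, edgeR). With the chromosome medians removed, Supv3l1 (0.11), Tsfm (0.19), Guf1 (0.25), Mtrf1l (0.085) and Ddx28 (0.13) were no longer called.

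Markers of mitochondrial mass gave no single direction. Citrate synthase (Cs), whose enzyme activity the study assayed as a measure of biogenesis, was at 246 to 267 CPM in WT podocytes and 314 to 324 CPM in AS podocytes. It rose 1.25-fold (log2 fold change 0.33, SE 0.06, adjusted p = 0.00150, edgeR). Cs lies on chromosome 10 as well, and with the chromosome median removed its difference was 0.0030 (adjusted p = 0.974, edgeR). Of the channels of the outer membrane, Vdac3 rose 1.30-fold (0.051 and no call with the median of chromosome 8 removed) and Vdac1 fell to 0.797 times the WT level (adjusted p = 0.000968, edgeR). In total 3 of 15 mass markers were higher and 3 were lower, with a median log2 fold change of -0.12.

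The calls in the nuclear lists were spread unevenly over the chromosomes, as were those of all genes. Of the 34 nuclear list genes called higher, 76.5% lay on chromosomes 5, 8, 10, 15 and 19, whose medians were above 0.15, where 26.1% of the 188 list genes tested lie. Of the 23 called lower, 43.5% lay on chromosomes 4 and 6, whose medians were below -0.15, where 10.6% of the list genes lie. Among all genes tested, the same shares were 50.2% of the genes called higher and 19.9% of those called lower. This limit on the medians was chosen after the values were seen.

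The RNA that Polrmt makes was counted as well. Genes of the mitochondrial genome held 0.882, 1.39 and 1.68% of the counts of WT samples 1 to 3, and 1.30, 1.65 and 2.02% of those of the AS samples. The ranges overlapped, with means of 1.32 ± 0.404% and 1.66 ± 0.361% (SD, n = 3 each), and the exact permutation test, two-sided, gave p = 0.5, where 3 against 3 cannot go below 0.10. In both lines the sample numbered 1 had the lowest share and the sample numbered 3 the highest. Each AS sample stood above the WT sample of the same number, and the permutation test took no account of these numbers. Of 13 mitochondrial mRNAs 12 were tested, all 12 had a fitted value above 0, with a median log2 fold change of 0.41, and 1 was called higher. The share above holds the counts of these same genes, so the 12 values are not separate results. Fitted values were 0.064 and 0.099 for the ribosomal RNAs mt-Rnr1 and mt-Rnr2, and both turned to -0.18 without WT sample 1, as did mt-Rnr1 to -0.039 without AS sample 3.

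The single call was mt-Atp6, a subunit of ATP synthase, at 1.36, 1.62 and 1.69 CPM in WT and at 1.89, 2.68 and 3.40 CPM in AS podocytes (log2 fold change 0.77, SE 0.24, adjusted p = 0.0309, edgeR). The lines did not overlap. Leaving out 1 sample gave 0.56 to 0.96, and the call was lost without any sample other than AS sample 1 (adjusted p = 0.0564 to 0.130, edgeR). The next in order were mt-Nd2, a subunit of complex I, at 1218 ± 351 and 1760 ± 347 CPM (SD, n = 3 each, log2 fold change 0.53, adjusted p = 0.0667, edgeR), and mt-Cytb, of complex III, at 2296 ± 633 and 3135 ± 717 CPM (SD, n = 3 each, 0.45, adjusted p = 0.118, edgeR). In both, AS sample 1 lay below WT sample 3, so the lines overlapped, although each AS sample stood above the WT sample of the same number. Both were called with the replicate number as a block, as given in the closing section. The mt-Nd2 value passed without WT sample 3 (0.73, adjusted p = 0.0250, edgeR) or AS sample 1 (0.66, adjusted p = 0.0465, edgeR), and mt-Cytb without WT sample 3 (0.65, adjusted p = 0.0397, edgeR). Both also passed with no filter on low counts (mt-Nd2 0.54, adjusted p = 1.81e-06, and mt-Cytb 0.45, adjusted p = 5.15e-05, edgeR). There the differences were nearly those of the reported fit, while the SE fell from 0.206 (mt-Nd2) and 0.209 (mt-Cytb) to 0.0934 for each. These smaller adjusted p therefore do not reflect a larger difference. What lowered them besides the smaller SE was not tested.

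The mitochondrial mRNAs fell into a high and a low class per length of transcript, although genes of a strand are transcribed together. A group of 6 mRNAs (mt-Co1, mt-Cytb, mt-Nd5, mt-Nd1, mt-Nd2 and mt-Nd4) had WT means of 647 to 2845 CPM per kilobase, whereas 6 others (mt-Co2, mt-Co3, mt-Atp6, mt-Nd3, mt-Nd4l and mt-Atp8) had WT means of 0.599 to 4.21 CPM per kilobase and mt-Nd6 33.3. In GENCODE M21, 97.8 to 99.9% of the 75-base windows of mt-Co2, mt-Co3, mt-Atp6, mt-Nd3 and mt-Nd4l also occur in annotated nuclear pseudogenes, against 0% for mt-Nd1, mt-Nd6, mt-Cytb and the ribosomal RNAs. For mt-Atp8 the share was 0%, and mt-Co1 and mt-Nd4 shared 39.8% and 61.5%. No source says how reads with more than 1 match were counted. The pseudogene that matches mt-Atp6, Gm10925 on chromosome 1, had 241 to 333 counts in WT and 349 to 591 counts in AS podocytes. With such copies added to the mitochondrial genes, mt-Atp6 was at 7.65 ± 1.42 and 11.6 ± 2.32 CPM (SD, n = 3 each, log2 fold change 0.60, adjusted p = 0.0227, edgeR). The plot of the mitochondrial RNAs sets their levels over these shares.

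**Figure D5:**
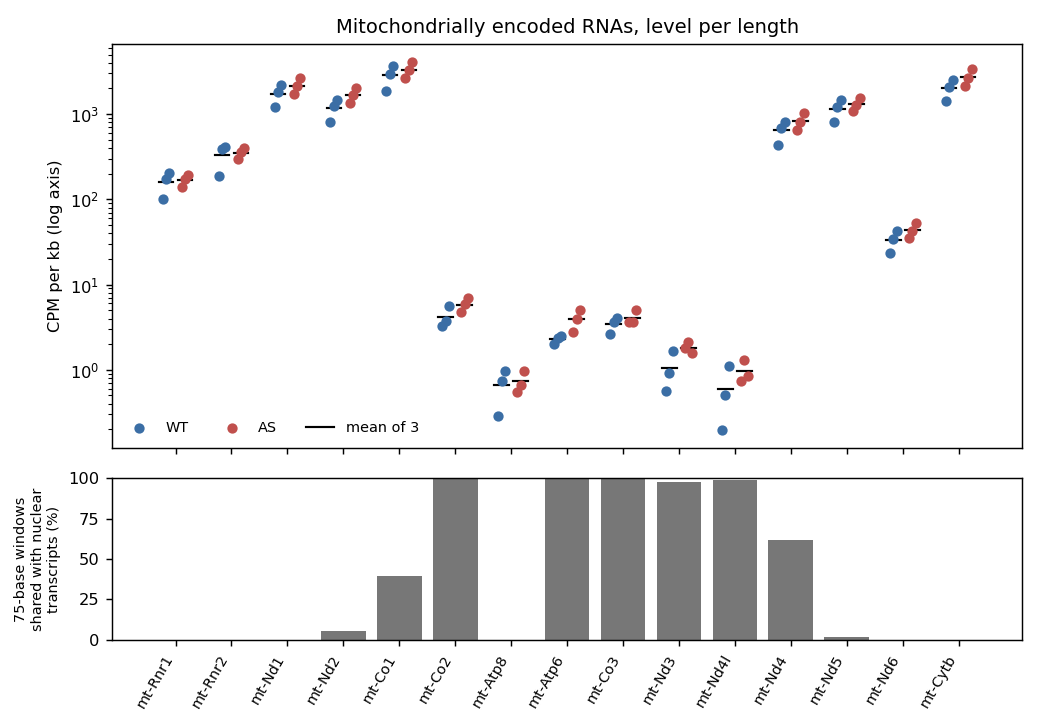
Top, CPM per kilobase of transcript on a log axis of the mitochondrially encoded ribosomal RNAs and mRNAs in each sample (WT blue, AS red, bars the mean of 3), in the order of the lists; bottom, the percent of 75-base windows of each RNA that also occur in annotated nuclear transcripts. The 5 mRNAs with a share of at least 97.8% have WT means of 0.599 to 4.21, and mt-Atp8, with 0%, lies there too.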

How the data were processed

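Gene counts of 3 WT and 3 AS samples were used. The values deposited by the authors are raw read counts per gene, in whole numbers. The submitters' processing notes name FastQC, Trim Galore, STAR, edgeR and the build mm39, without versions, and the mRNA libraries had 15 PCR cycles. For the counting tool and annotation, the sources used here give no name. Of the 57132 identifiers, 51880 were matched without their version to GENCODE M21 (GRCm38), which gave symbols, chromosomes and exon lengths. Identifiers without a symbol held 0.363% of the counts. Coordinates are printed only for RefSeq promoters.

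Counts were tested in R 4.3.3 with edgeR 4.0.16 (filterByExpr with minimum count 10 and minimum total 15, TMM, two-sided quasi-likelihood test with a single term for genotype, Benjamini-Hochberg over the 16263 genes tested), with limma 3.58.1 (voom, which the study used) and DESeq2 1.42.0 as alternatives. The SE is the log2 fold change over the square root of F, an approximation. The fits were tested on simulated data. The members and lists were chosen with earlier results of these data known. Named genes were the members, Col4a3, Cs and the 3 smallest adjusted p of each list. Prorp and Mtrfr were not matched to the table. Depth was 45417221 to 54290968 counts per sample, and counting intervals take no account of PCR copies, which were not marked by identifiers.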

Additional observations from a re-analysis of the deposited data

How the results depend on the processing

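The fit with nuclear copies added was chosen after seeing the data. The number of genes called stayed within 1.5 times the 6517 of the reported fit in every fit. The number of members called higher was 2 to 4 (3 in the reported fit), with Esrra and Nrf1 as the 2 left once the chromosome median was removed. The 1 called lower (Ppargc1b) fell to 0 with library size only, no low-count filter, a mean CPM of at least 1 (where Ppargc1b was not tested), DESeq2, limma-voom, the replicate block and the chromosome median removed, and without any 1 sample. Ppargc1b itself kept its direction without the call, at -1.22 (library size only), -1.24 (no low-count filter), -1.27 (DESeq2), -1.17 (limma-voom), -1.23 (replicate block) and -1.15 (chromosome median removed), and from -1.44 to -1.01 without 1 sample. Nrf1 gained a call with library size only (0.23) and without WT sample 1, and ranged from 0.15 to 0.24 without 1 sample. With the chromosome median removed, Nrf1 was called (0.40), Tfam (0.13) and Polrmt (0.044) were not, Pprc1 (-0.078), Tk2 (-0.061) and Mterf2 (-0.093) changed sign, and the list genes called fell from 58 to 35. Without 1 sample, mt-Rnr1 ranged from -0.18 to 0.28 and mt-Rnr2 from -0.18 to 0.28. The labels give the samples of both lines the same set numbers, and whether these pair the samples was not settled. Deviations of same-numbered samples correlated at 0.147, 0.0939 and 0.0526, all positive. All samples but WT sample 3 correlated best with their own number, and that sample correlated at 0.0571 with AS sample 2. With the replicate block 7066 genes were called, with mt-Nd2 (0.56, adjusted p = 0.00052, edgeR) and mt-Cytb (0.46, adjusted p = 0.00075, edgeR) among them, and apart from these and Ppargc1b the block changed no call of a named gene. Of 159 refitted member values, 141 kept direction and side of the threshold, 14 lost a call, 3 gained one and 1 changed sign. Precision is limited by 3 samples a line, and for Ppargc1a and Ppargc1b by counts below 100 per sample.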
